A study of Mus musculus with 5 samples.

Results

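Transcripts of 38 genes that carry a cell through mitosis were examined in liver of tetraploid mouse embryos. The set covers the cyclins and kinases of mitotic entry, the chromosomal passenger complex, the spindle checkpoint, the kinetochore, the trigger of anaphase and the spindle, and, apart from Cenpe, leaves out the kinesin motors. Members were chosen by name, and 38 of 38 had a row among the 23022 genes of the authors' deposited table. Fold changes are given as 4N over WT throughout. The 4N group held 3 libraries of E18.5 liver from embryos with an Hhex knockout whose blastocysts had received td-Tomato-positive tetraploid embryonic stem cells (4N-ESCs). The WT group held 2 libraries of liver from normal embryos of the same day. Ploidy, origin of the liver cells, Hhex genotype of the host and embryo manipulation thus differ together between the groups and cannot be told apart. The labels do not state what share of each 4N liver came from the diploid host, whether 1 stem cell line was used, or whether the embryos of a group shared a litter, so p-values measure the spread between these samples. The series title and design text also name heart and another stage, which were not analysed here.

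Values of single libraries and their depths were not analysed here. The authors' deposited table gives each gene's mean normalized count over all 5 libraries, a log2 fold change, its standard error (SE) and an adjusted p of the Wald test over all genes. Group levels below are implied by that mean and fold change together, with no spread of their own. Liver identity was plain, since albumin (Alb) had the highest mean of the genes named here, 6200278 normalized counts, with a log2 fold change of 0.01 (SE 0.22) per the authors' deposited table. Hhex, the gene knocked out in the hosts, stood at 0.55 (adjusted p = 0.29, SE 0.33) per the authors' deposited table. The deposited values do not name the numerator of the fold changes, so the direction was inferred. Genes with the most extreme fold changes for their mean were taken to have no reads in 1 group. With an assumed fitting floor of 0.5 counts, an empty group of 2 libraries allows no SE under 1.44. Among the 247 such genes with negative values, 12 had an SE under 1.44, whereas 0 of the 606 with positive values did.

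Mitosis begins when Cdk1, bound to cyclin B, is freed of inhibitory phosphates by Cdc25 phosphatases. Chromosomes then attach through their kinetochores to the spindle, and the spindle checkpoint holds back the anaphase-promoting complex until each kinetochore is attached. Most genes of this machinery are transcribed late in the cycle, and several serve as markers of dividing cells. Fetal liver is both a growing epithelium and the main site of red cell formation, and its dividing cells include hepatoblasts and erythroid precursors.

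Most of the mitotic genes were higher in 4N liver, by a little under 2-fold at the median. By the authors' Wald test at an adjusted p under 0.05, 30 of the 38 genes rose and 0 fell. The other 8 did not pass. At least a 2-fold rise was seen for 10 of the 30. Of all 23022 genes, 7.94% rose and 7.41% fell by the same rule. Among the 10598 genes averaging at least 500 normalized counts, where each of the 38 lies, 11.1% rose and 10.1% fell. The fold change was above 0 for 38 of 38 mitotic genes, against 50.8% of the genes with that minimum mean. Over the mitotic genes the median log2 fold change was 0.83, a 1.77-fold higher level, against a median of 0.01 over the genes with that minimum mean. Their summed implied level was 427502 normalized counts in 4N and 221942 in WT liver, a ratio of 1.93. Of these sums, Mki67 alone gave 142626 in 4N and 66111 in WT liver. In bulk tissue a larger share of dividing cells and more RNA per dividing cell cannot be told apart. The calls rest on a normal reference for the Wald statistic. Against a t distribution with 3 degrees of freedom 0 of the 38 passed (22 at an unadjusted p under 0.05). By that reference no other gene passed either, the smallest adjusted p of all being 0.37. An unadjusted p under 0.05 was reached by 2513 of the 23022 genes. When the null was a change of up to 1.5-fold, 1 of the 38 passed, Cdc25b, with the counts over all genes given in the last section.

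**Figure D1:**
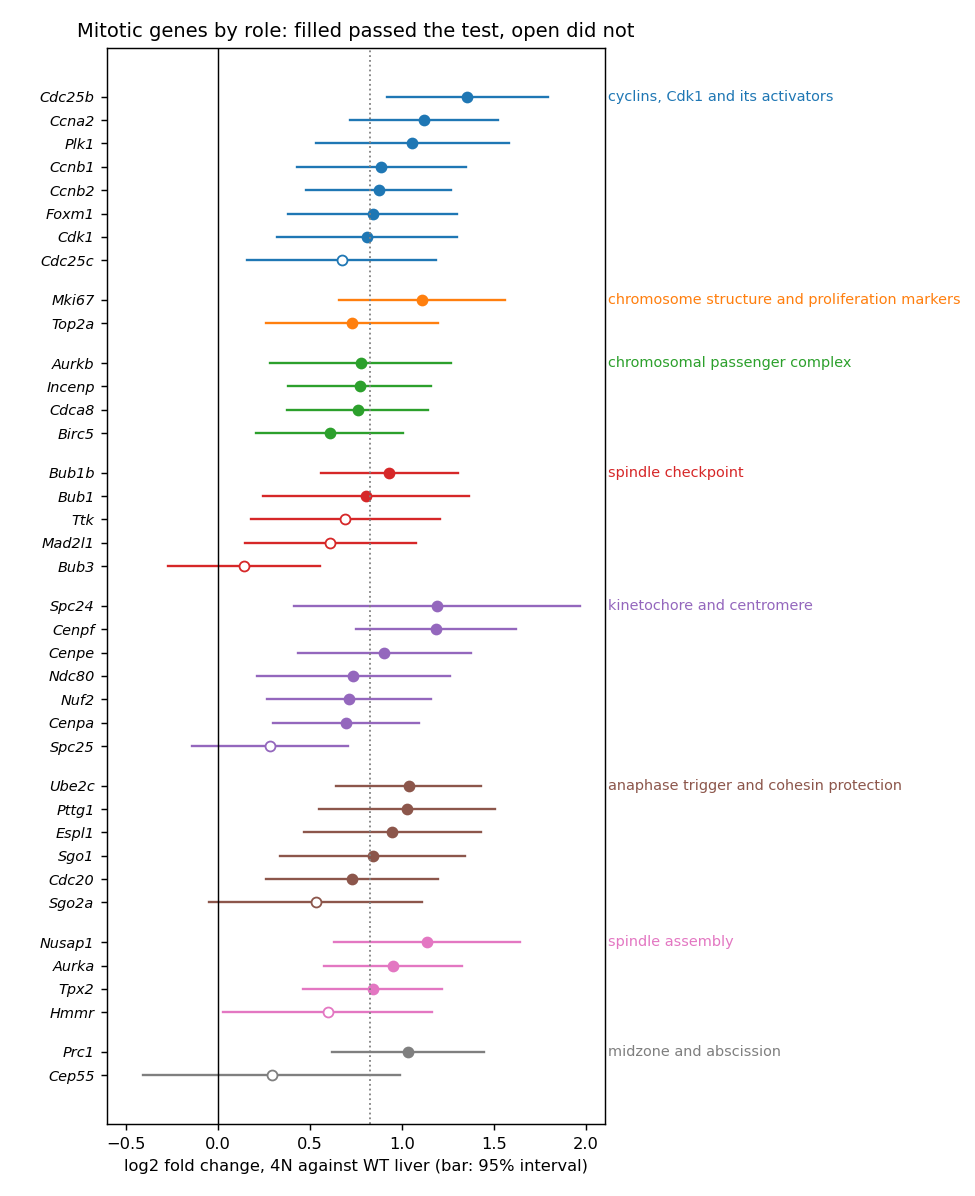
Log2 fold change, 4N against WT liver, of each of the 38 mitotic genes by role. Points are values of the authors' deposited table, bars 95% intervals from its standard errors, filled points passed the test, open points did not, and the dotted line is the median of 0.83. Every point lies above 0, and the lowest are Bub3, Spc25 and Cep55.

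The range was narrow, from 0.14 for Bub3 to 1.35 for Cdc25b per the authors' deposited table. For 35 of the 38 genes the 95% interval held the median of the set. The interval of Cdc25b lay above it and those of Bub3 and Spc25 below it. At the members' median SE of 0.24, a log2 fold change of about 0.63 was needed to pass, so values of this size sit close to the detection limit. Members came from 15 chromosomes, with 8 on chromosome 2. The 30 genes on other chromosomes had a median log2 fold change of 0.77 and 23 of them rose. Genes averaging at least 500 normalized counts on those 15 chromosomes had chromosome medians between -0.07 and 0.08.

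The promoters of the set were examined for elements that known cell cycle regulators use. The CHR element, with the letters TTTGAA, is bound by the MuvB complex, which joins the DREAM repressor in resting cells and B-Myb and Foxm1 in dividing cells. CCAAT boxes, with the letters CCAAT, are bound by the factor NF-Y. RefSeq promoter windows of build GRCm38.p6, each from 250 bases before to 50 after a gene start, were matched by symbol for 31 of the 38 genes. Cdc25c, Foxm1, Ccna2, Aurkb, Incenp, Spc24 and Tpx2 were not matched. The build of the expression data was GRCm39, so the windows serve for their sequence only. Below are 6 promoters, chosen after the values were seen to show high fold changes (Cdc25b, Cenpf, Ube2c), a typical one (Ccnb2) and the lowest ones (Bub3, Spc25). Each is read 5′ to 3′ on the strand of its gene, and capitals mark CHR elements, their variant with the letters TTTAAA, and CCAAT boxes on either strand.
Cdc25b, chr2:131186698-131186997, plus strand: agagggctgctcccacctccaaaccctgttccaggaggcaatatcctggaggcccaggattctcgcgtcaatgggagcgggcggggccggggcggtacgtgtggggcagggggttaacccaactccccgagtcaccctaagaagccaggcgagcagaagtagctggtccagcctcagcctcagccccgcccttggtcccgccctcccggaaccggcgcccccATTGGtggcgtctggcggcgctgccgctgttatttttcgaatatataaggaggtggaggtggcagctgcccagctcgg
Cenpf, chr1:189688037-189688336, minus strand: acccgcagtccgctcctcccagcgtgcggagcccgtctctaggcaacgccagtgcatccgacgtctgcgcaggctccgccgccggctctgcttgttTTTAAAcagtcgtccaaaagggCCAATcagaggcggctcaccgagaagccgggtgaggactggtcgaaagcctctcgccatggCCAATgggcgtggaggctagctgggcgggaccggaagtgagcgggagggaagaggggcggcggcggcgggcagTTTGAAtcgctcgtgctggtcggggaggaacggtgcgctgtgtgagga
Ube2c, chr2:164769679-164769978, plus strand: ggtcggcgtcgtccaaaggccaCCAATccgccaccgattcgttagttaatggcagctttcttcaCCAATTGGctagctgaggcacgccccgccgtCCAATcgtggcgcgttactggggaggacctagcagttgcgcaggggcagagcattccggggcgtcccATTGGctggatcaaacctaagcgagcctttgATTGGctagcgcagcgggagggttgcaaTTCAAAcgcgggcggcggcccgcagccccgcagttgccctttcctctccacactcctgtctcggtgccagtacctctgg
Ccnb2, chr9:70421505-70421804, minus strand: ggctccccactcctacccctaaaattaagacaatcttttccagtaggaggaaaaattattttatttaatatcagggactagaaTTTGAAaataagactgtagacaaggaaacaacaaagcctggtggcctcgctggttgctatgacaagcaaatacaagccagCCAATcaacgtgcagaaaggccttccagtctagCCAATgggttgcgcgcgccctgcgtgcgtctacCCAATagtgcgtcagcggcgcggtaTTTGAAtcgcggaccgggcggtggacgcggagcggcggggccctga
Bub3, chr7:131560120-131560419, plus strand: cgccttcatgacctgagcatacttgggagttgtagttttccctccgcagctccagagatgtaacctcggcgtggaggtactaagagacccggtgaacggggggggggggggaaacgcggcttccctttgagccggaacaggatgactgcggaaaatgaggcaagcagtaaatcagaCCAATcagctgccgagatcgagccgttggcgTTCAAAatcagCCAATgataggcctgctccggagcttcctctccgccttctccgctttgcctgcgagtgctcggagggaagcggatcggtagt
Spc25, chr2:69206164-69206463, minus strand: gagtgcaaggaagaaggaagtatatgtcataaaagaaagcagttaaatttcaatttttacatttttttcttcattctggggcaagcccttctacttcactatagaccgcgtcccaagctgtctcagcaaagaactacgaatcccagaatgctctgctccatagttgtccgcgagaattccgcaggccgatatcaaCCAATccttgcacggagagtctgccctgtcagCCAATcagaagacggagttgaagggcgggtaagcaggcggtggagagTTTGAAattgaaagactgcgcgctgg

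A TTTGAA match within 50 bases of the start and CCAAT boxes near it are seen in all of these but Cdc25b, in genes with high and with low fold changes. This depends on the promoters chosen. Matched genes not shown, with fold changes above that of Ube2c, were Nusap1 (1.13), Mki67 (1.11) and Plk1 (1.06). Nusap1 held none of the motifs, Mki67 had CHR elements at -116 and -98, and Plk1 had a CHR element at 31. Cenpf has CCAAT boxes whose first bases lie at -132 and -71 from the start, and a CHR element whose first base is base 3 after it. Bub3, with the lowest fold change, has CCAAT boxes at -74 and -32 and a CHR element at -43 between them. Spc25 has CCAAT boxes at -55 and -23 and a CHR element at 25. Ube2c holds 6 CCAAT matches, of which a pair on opposite strands overlap, and a CHR element at -29. Cdc25b, with the highest fold change, has a single CCAAT match at -28 and no match to TTTGAA or TTTAAA in this window. No other form of the CHR element was searched for.

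Over the 31 promoters, 20 held TTTGAA on either strand, 64.5%, against 20.2% of the 27025 genes with a promoter window and 14.4% of the genes with a window that averaged at least 500 normalized counts. Most of these elements lay near the start. A match in the 50 bases before the start or the 50 after it was found in 61.3% of the mitotic genes and 5.72% of all genes. The variant TTTAAA, which reads the same on both strands, was found in 8 of 31, 25.8%, against 14.9% of all genes. CCAAT was found in 24 of 31, 77.4%, against 41.1% of all genes. At least 2 copies were held by 16 of the 31, with no share over all genes to set beside that count. Both TTTGAA and CCAAT were present in 18 of 31, 58.1%, against 8.97% of all genes. Mad2l1, Nuf2, Pttg1 and Nusap1 held none of the motifs in this window. Within the set, the 20 genes with TTTGAA had a median log2 fold change of 0.79 and the 11 without it 0.84, and 15 and 9 of them rose. A match of letters is a description of these windows, not of binding. Members were chosen by name as mitotic genes, so the shares above do not depend on the fold changes. A link between the elements and the rise was not tested.

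**Figure D2:**
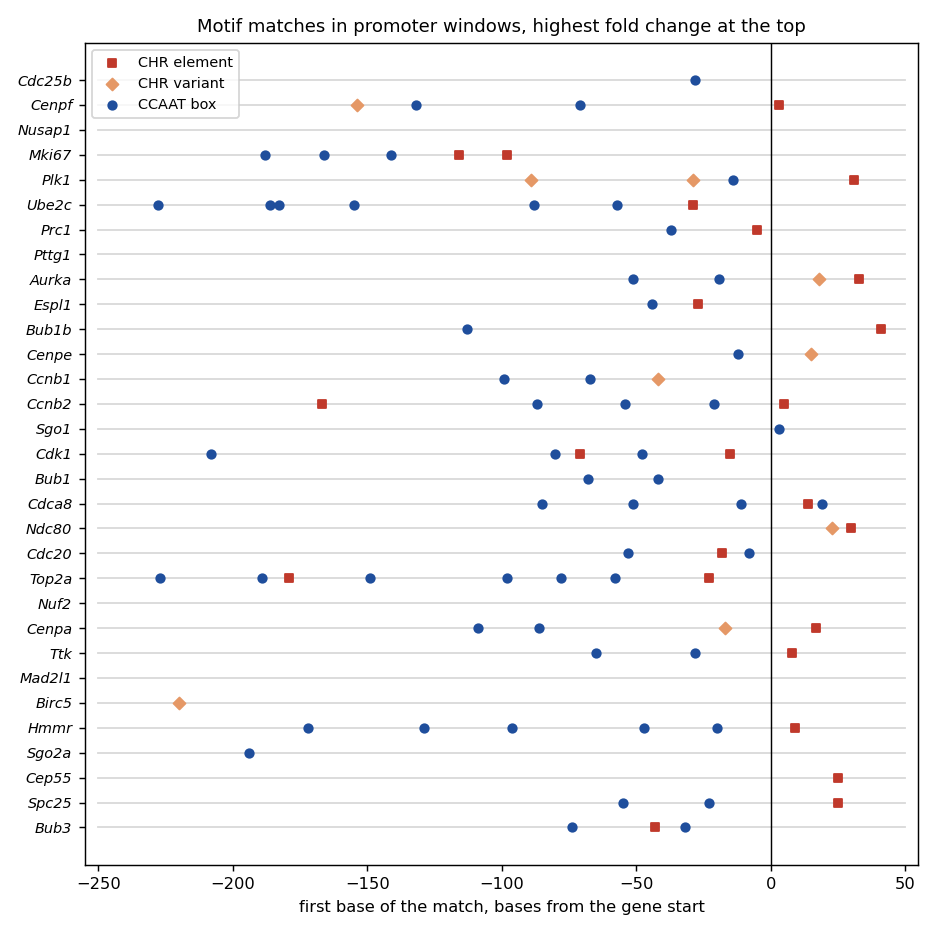
Positions of motif matches in the promoter windows of 31 mitotic genes, as bases from the gene start, with genes ordered by fold change. Squares are CHR elements (TTTGAA), diamonds the TTTAAA variant and circles CCAAT boxes, on either strand, in 1 window per gene. CHR elements gather around the start and CCAAT boxes just before it, in genes at the top and at the bottom alike.

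Of the 8 genes that start mitosis, 7 rose and 1 did not pass, with a median of 0.88. Cdc25b, the phosphatase that first activates Cdk1 at mitotic entry, rose most of the whole set. Its implied level was 8965 normalized counts in WT and 22919 in 4N liver, and the authors' deposited table gave a log2 fold change of 1.35 (adjusted p = 5.6e-08, SE 0.22). Cyclin A2 (Ccna2), which acts in S phase and early mitosis, went from an implied 7901 to 17161 counts, a log2 fold change of 1.12 (SE 0.21) per the authors' deposited table. The kinase Plk1, which drives centrosome maturation and mitotic entry, rose by 1.06 (SE 0.27) per the authors' deposited table. The B-type cyclins, which activate Cdk1, rose nearly alike, Ccnb1 by 0.89 (SE 0.23) and Ccnb2 by 0.87 (SE 0.20) per the authors' deposited table. Their listed processed copies were scarce, at means of 65.3 (Ccnb1-ps) and 92.5 (Ccnb2-ps) against 8082 for Ccnb1 and 6005 for Ccnb2 per the authors' deposited table. Cdk1 itself rose by 0.81 (SE 0.25), and Foxm1, the transcription factor of late cell cycle genes, by 0.84 (SE 0.23), per the authors' deposited table. Cdc25c, another Cdk1-activating phosphatase, had the lowest level of this group, with implied means of 842 and 1342 counts. It did not pass, at 0.67 (adjusted p = 0.061, SE 0.26) per the authors' deposited table, although its interval, 0.16 to 1.18, overlaps those of all others in the group.

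Both markers of proliferating chromosomes rose. Mki67, the surfactant-like coat of mitotic chromosomes known as Ki-67, had the highest mean count of the set. It went from an implied 66111 to 142626 normalized counts, a log2 fold change of 1.11 (adjusted p = 3.1e-05, SE 0.23) per the authors' deposited table. Top2a, the topoisomerase that untangles sister DNA, went from an implied 23921 to 39577 counts. Its log2 fold change was 0.73 (adjusted p = 0.019, SE 0.24) per the authors' deposited table.

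The chromosomal passenger complex rose as a whole, 4 of 4, and within a narrow range. This complex of the kinase Aurkb, the scaffold Incenp, survivin (Birc5) and borealin (Cdca8) corrects faulty kinetochore attachments. Cdca8 went from an implied 3377 to 5724 counts, with a log2 fold change of 0.76 (adjusted p = 0.0014, SE 0.20) per the authors' deposited table. Aurkb (0.78, SE 0.25) and Incenp (0.77, SE 0.20) had nearly the same value per the authors' deposited table. Birc5 had the lowest value of the 4, from an implied 3901 to 5942 counts and a log2 fold change of 0.61 (adjusted p = 0.023, SE 0.20) per the authors' deposited table.

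Of 5 spindle checkpoint genes, 2 rose and 3 did not pass, with a median of 0.69. Bub1b, which encodes the checkpoint effector BubR1, went from an implied 3321 to 6337 counts, a log2 fold change of 0.93 (adjusted p = 2.2e-05, SE 0.19) per the authors' deposited table. The checkpoint kinase Bub1 rose by 0.81 (adjusted p = 0.034, SE 0.29) per the authors' deposited table. Bub3, the partner that brings both proteins to kinetochores, differed little between the groups, at an implied 4748 counts in WT and 5241 in 4N liver. Its log2 fold change was 0.14 (adjusted p = 0.75, SE 0.21) per the authors' deposited table, with a 95% interval of -0.27 to 0.55. That interval ends just below the interval of Bub1b, 0.56 to 1.30, and the difference between the genes was not tested. Ttk, the kinase Mps1 at the top of the checkpoint, missed the threshold at 0.69 (adjusted p = 0.051, SE 0.26) per the authors' deposited table. Mad2l1, which encodes the checkpoint protein Mad2, missed it at 0.61 (adjusted p = 0.060, SE 0.24) per the authors' deposited table. Ttk, Mad2l1 and Cdc25c passed when only genes averaging at least 50 normalized counts were tested, with p-values of the authors' deposited table readjusted by the Benjamini-Hochberg method to adjusted p = 0.039 for Ttk, adjusted p = 0.046 for Mad2l1 and adjusted p = 0.047 for Cdc25c. After the fold changes of the authors' deposited table were recentred on genes averaging at least 10000, Bub1 (adjusted p = 0.052) and Ndc80 (adjusted p = 0.065) did not pass.

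Of 7 kinetochore and centromere genes, 6 rose and 1 did not pass, with a median of 0.74. Cenpf, a large coiled-coil protein of the outer kinetochore, went from an implied 5901 to 13400 counts, a log2 fold change of 1.18 (adjusted p = 2.8e-06, SE 0.22) per the authors' deposited table. The kinetochore motor Cenpe rose by 0.90 (SE 0.24), and Cenpa, the histone H3 variant that marks centromeres, by 0.70 (SE 0.20), per the authors' deposited table. The Ndc80 complex, which grips microtubules, is built of Ndc80, Nuf2, Spc24 and Spc25 in equal numbers, and the fold changes of its transcripts ran from 0.29 to 1.19. Ndc80 rose by 0.74 (adjusted p = 0.042, SE 0.27) and Nuf2 by 0.71 (SE 0.23) per the authors' deposited table. Spc24 rose by 1.19 (adjusted p = 0.022, SE 0.40) per the authors' deposited table, the widest error of the set. Spc25 did not pass, from an implied 3172 to 3865 counts and at 0.29 (adjusted p = 0.45, SE 0.22) per the authors' deposited table. Its interval, -0.14 to 0.71, overlaps those of the other 3 subunits, and the differences between subunits were not tested.

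Among 6 genes of the anaphase trigger and of cohesin protection, 5 rose and 1 did not pass, with a median of 0.89. Ube2c, the ubiquitin-conjugating enzyme of the anaphase-promoting complex, went from an implied 6632 to 13614 counts, a log2 fold change of 1.04 (adjusted p = 7.1e-06, SE 0.20) per the authors' deposited table. Securin (Pttg1), which restrains separase, rose by 1.03 (SE 0.24), and separase itself (Espl1), which cuts cohesin, by 0.95 (SE 0.25), per the authors' deposited table. Cdc20, the activator that the checkpoint restrains, rose by 0.73 (SE 0.24) per the authors' deposited table. The shugoshin Sgo1, which shields centromeric cohesin, rose by 0.84 (SE 0.26) per the authors' deposited table. Sgo2a, its relative best known from meiosis, was among the scarcest genes of the set, at an implied 614 counts in WT and 887 in 4N liver. Its reads may be shared with its close copy Sgo2b, which makes its value uncertain. It did not pass, at 0.53 (adjusted p = 0.25, SE 0.30) per the authors' deposited table.

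Of 4 spindle genes 3 rose, and of 2 midzone and abscission genes 1 rose. The spindle kinase Aurka went from an implied 2764 to 5351 counts, a log2 fold change of 0.95 (adjusted p = 1.7e-05, SE 0.19) per the authors' deposited table. Its activator Tpx2 rose by 0.84 (SE 0.19) and the microtubule-bundling Nusap1 by 1.13 (SE 0.26) per the authors' deposited table. Hmmr, a spindle pole protein, did not pass, from an implied 4819 to 7289 counts and at 0.60 (adjusted p = 0.17, SE 0.29) per the authors' deposited table. Prc1, which bundles microtubules between the separating chromosomes, went from an implied 3792 to 7770 counts, a log2 fold change of 1.03 (adjusted p = 2.2e-05, SE 0.21) per the authors' deposited table. Cep55, which recruits the machinery that cuts the last bridge between daughter cells, had the lowest mean of the set. Its implied level was 666 counts in WT and 816 in 4N liver, and the authors' deposited table gave 0.29 (adjusted p = 0.69, SE 0.36). The intervals of Cep55, -0.41 to 0.99, and Prc1, 0.62 to 1.45, overlap, and both hold the median of the set.

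Levels of different genes were compared per kilobase of the principal transcript in GENCODE M21. Of the 38 genes, 12 have annotated coding transcripts that differ in length by over 1.5 times, and their levels depend on the transcript used. Mki67, at 11134 normalized counts per kilobase over all libraries, Top2a (6381) and Cdc25b (5613) were abundant and depended on it little or not at all. Ube2c stood at 11191 per kilobase of its principal transcript of 967 bases, but at 4939 if its reads came from the longest form of 2191 bases. Cenpa stood at 4404 by its principal transcript and at 18659 by its shortest one, so which gene ranks first is not settled. At the low end were Sgo2a (157), with a single annotated length, and Cep55 (282, up to 525 by its shortest form). Mad2l1 stood at 500 by a principal transcript of 7557 bases and at 2189 by its shortest of 1725 bases. Bub3, the lowest in fold change, stood at 2274 counts per kilobase, between 1477 and 6752 over its forms, against 1399 for Bub1b and 1139 for Bub1. Spc25 stood at 3005, or 2350 by its longest form, against 1021 for Ndc80, 1409 for Nuf2 and 1365 for Spc24, of which Nuf2 and Spc24 reach 2666 and 2974 by their shortest forms.

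**Figure D3:**
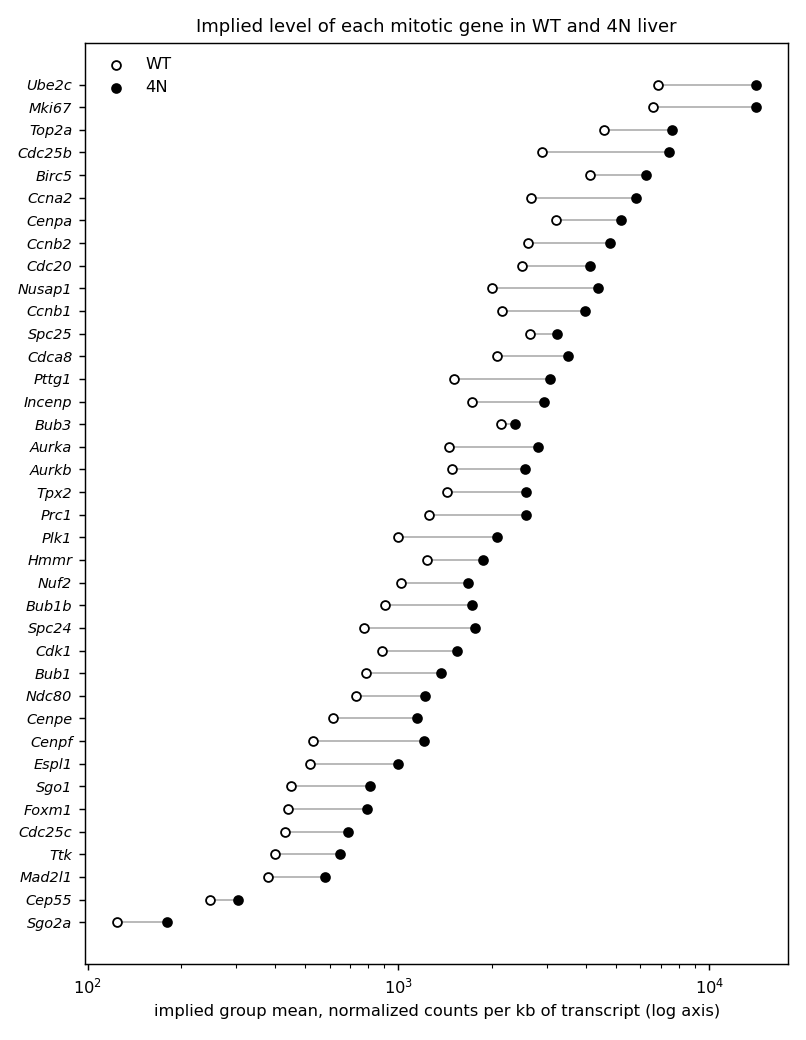
Implied mean level of each mitotic gene in WT (open) and 4N liver (filled), in normalized counts per kilobase of transcript on a log axis, ordered by the mean over all libraries. The filled point lies to the right of the open one for all 38 genes, and the gap is smallest for Bub3. No spread is shown because single libraries were not analysed here.

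Genes of the same pathway outside the set rose or did not pass. Of 122 measured genes in 8 further lists of mitosis genes, 33 rose and 0 fell (46 and 4 at an unadjusted p under 0.05), with a median log2 fold change of 0.37. For comparison, 11.1% of all genes averaging at least 500 normalized counts rose and 10.1% fell. Of 8 condensin subunits, which compact chromosomes, 4 rose (median 0.60), among them Ncapd2 at 0.97 (SE 0.19), Ncaph at 0.84 and Ncapd3 at 0.65 per the authors' deposited table. Of 20 further spindle microtubule genes, 10 rose (median 0.57). Those with the smallest adjusted p were Dlgap5 (1.13, SE 0.20), Spag5 (0.92) and the tubulin Tubb5 (0.79) per the authors' deposited table. Of 19 further outer kinetochore and checkpoint genes, 6 rose (median 0.41). The smallest adjusted p belonged to Mad2l1bp, which takes Mad2 off its targets (0.93, SE 0.27), then to Ska2 (0.71), and then equally to Nsl1 (0.68) and Ckap5 (0.72), per the authors' deposited table. Of 19 inner centromere genes, 3 rose (median 0.38), namely Hjurp, the loader of Cenpa (1.07, SE 0.23), Oip5 (0.82) and Cenpw (0.72) per the authors' deposited table.

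Further lists covered the rest of the machinery and the preceding S phase. Their counts are read beside the 11.1% of genes averaging at least 500 normalized counts that rose. The share that rose in the list of the anaphase-promoting complex was near that value. It was little above that value, for lists this short, among inner centromere genes, MuvB, DREAM and B-Myb genes, and further entry and exit regulators. Of 16 genes of the anaphase-promoting complex and its activator Fzr1, 2 rose (median 0.16). These were Fzr1 itself, which keeps the complex active after mitosis (1.56, SE 0.31), and the chain-extending enzyme Ube2s (1.30, SE 0.30), per the authors' deposited table. The value of Fzr1 was above that of each of the 38 mitotic genes. Of 12 cohesin genes and loaders, 3 rose (median 0.28), namely Cdca5 (0.69), Rad21 (0.63) and Esco2 (0.73) per the authors' deposited table. Of 16 further regulators of mitotic entry and exit, 3 rose (median 0.33), namely Ccnf (0.93), Fbxo5 (0.65) and Gtse1 (0.64) per the authors' deposited table. Of 12 MuvB, DREAM and B-Myb genes, whose complexes bind the CHR element, 2 rose (median 0.28), the E2F partner Tfdp2 (1.24, SE 0.23) and E2f4 (0.66, SE 0.23) per the authors' deposited table. Mybl2, which encodes B-Myb and was singled out after its value was seen, did not pass, at 0.31 (adjusted p = 0.45, SE 0.23) per the authors' deposited table. Of 25 S phase replication genes, 7 rose and 0 fell (median 0.48). By adjusted p the first of them were Pcna (0.85, SE 0.19), Cdc6 (0.78) and Rrm1 (0.71) per the authors' deposited table. Whether the mitotic genes differ from these lists was not tested.

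Red cell genes rose as well, most of them by more. Of 23 measured erythroid markers, 22 rose and 0 fell, with a median log2 fold change of 1.55 and a range of 0.23 to 3.29. Their summed implied level was 3793723 normalized counts in 4N and 1173425 in WT liver, a ratio of 3.23, against 1.93 for the mitotic genes. Both sums rest heavily on a few abundant genes. In 4N liver Hba-a1 gave an implied 1388055 counts and Hbb-bs 1087665, and Mki67 gave 142626 of the mitotic sum. The smallest adjusted p belonged to the globin Hba-a2 (3.29, SE 0.34), whose reads can be shared with Hba-a1, to Bpgm (2.08, SE 0.24) and to Trim10 (2.18, SE 0.25), per the authors' deposited table. Markers of earlier precursors, singled out after their values were seen, were lower in the range. The erythroid factor Gata1 rose by 0.72 (SE 0.24) and the erythropoietin receptor Epor by 1.00 (SE 0.35), while the transferrin receptor Tfrc did not pass at 0.23 (SE 0.22), per the authors' deposited table. No erythroid marker was near 0 counts, the lowest mean being 4876. The part of erythroid cells in the rise of the mitotic genes was not tested.

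**Figure D4:**
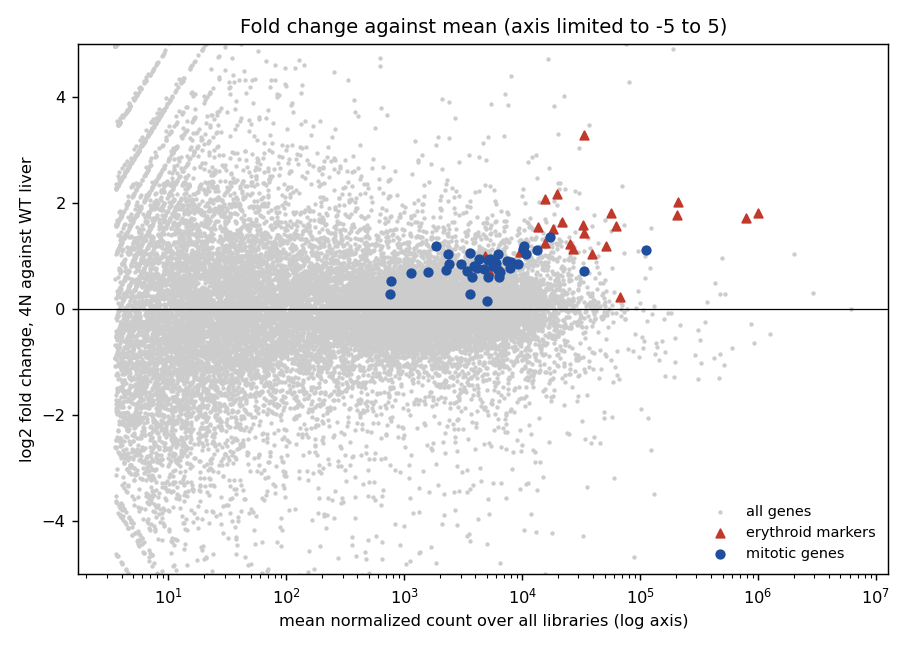
Log2 fold change, 4N against WT liver, against the mean normalized count over all libraries on a log axis, for all genes (grey), the 38 mitotic genes (circles) and 23 erythroid markers (triangles), as in the authors' deposited table. The mitotic genes form a band between 0.14 and 1.35, and most erythroid markers lie above that band. Of the 38, 35 lie above 0.33, the 75th percentile of genes averaging at least 500 normalized counts, and the lowest lie among the bulk of genes. The vertical axis is limited, so genes beyond it are not drawn.

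The other cell type lists had medians between -0.30 and 0.50. Among genes averaging at least 500 normalized counts, 11.1% rose and 10.1% fell, and the counts below are read beside these shares. Of 16 hepatocyte markers, 1 rose and 4 fell (median -0.10), and their summed implied level had a ratio of 1.06. A list of 27 secreted plasma proteins, nearly all made by hepatocytes and 10 of them also among these markers, had 0 higher, 15 lower, a median of -0.71 and a summed ratio of 0.895. Alpha-fetoprotein (Afp), a fetal plasma protein, rose by 1.03 (SE 0.26), while the amino acid enzyme Tat (-5.43, SE 0.22), the urea cycle enzyme Cps1 (-0.91) and the lipoprotein gene Apob (-1.05) fell, per the authors' deposited table. Of 12 macrophage and Kupffer cell markers, 4 rose and 1 fell (median 0.50, summed ratio 1.34), with Csf1r at 0.87 (SE 0.20), Cd68 at 0.90, Adgre1 at 0.79 and Vsig4 at -1.87 per the authors' deposited table. Of 11 measured lymphoid markers, 3 rose and 1 fell (median -0.30, summed ratio 1.05). The precursor B cell genes Igll1 (1.72), Vpreb1 (1.30) and Rag1 (0.92) rose and Ms4a1 (-3.64), which encodes CD20, fell, per the authors' deposited table. Of 12 neutrophil and granulocyte progenitor markers 1 rose, Csf3r at 0.79 per the authors' deposited table (list median 0.20, summed ratio 1.09). Of 12 endothelial markers 1 fell, Clec4g at -1.23 per the authors' deposited table (list median -0.00, summed ratio 0.946). Of 9 measured megakaryocyte markers 0 were called (0 higher and 2 lower at an unadjusted p under 0.05, median -0.21, summed ratio 0.85). The most abundant of them, Ppbp and Itgb3, stood at -0.51 and -0.12 per the authors' deposited table.

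**Figure D5:**
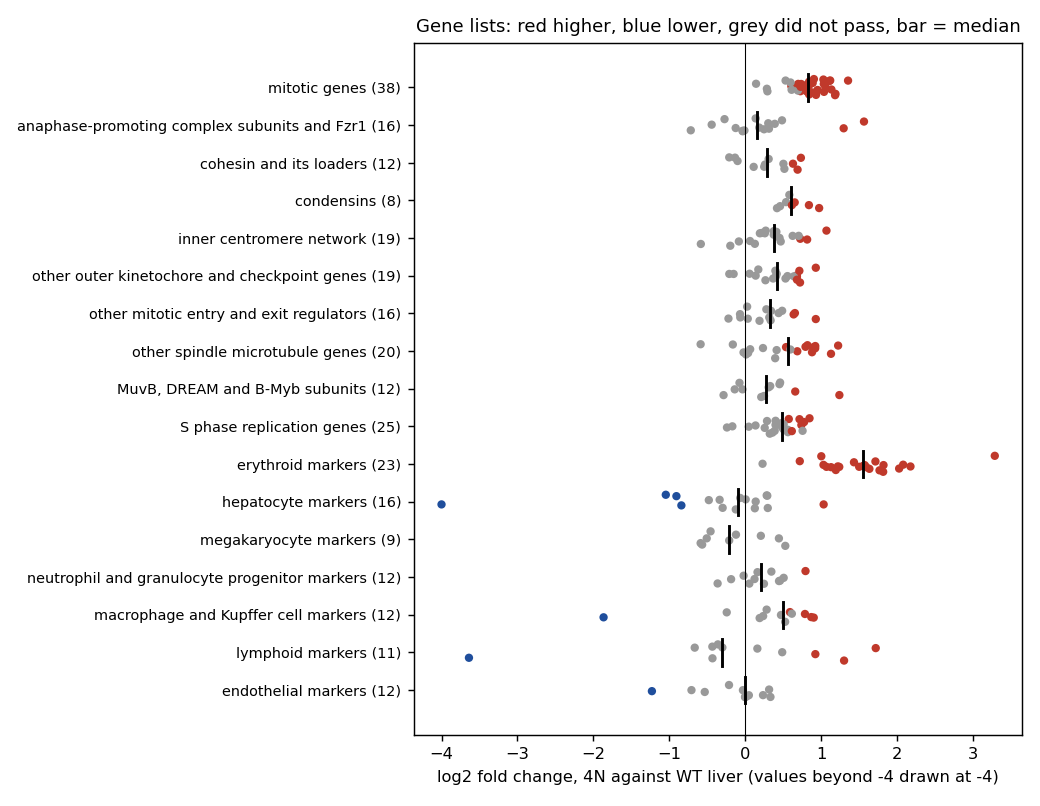
Log2 fold changes, 4N against WT liver, of the mitotic genes, 9 further cell cycle lists and 7 cell type lists, 1 point per gene, with the number measured in parentheses. Red points were called higher, blue lower and grey did not pass, and black bars are medians. The bar stands at 0.83 for the mitotic genes, 0.48 for the S phase genes and 1.55 for the erythroid markers.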

How the data were processed

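RNA of 5 livers was sequenced from poly(A)-selected, randomly primed libraries, per the labels' protocols. The submitters' processing notes name the build GRCm39. No source used here gives the aligner or the counter. From the reads the authors deposited a single table, which holds, per the file headers, for each gene, a mean signal (the mean normalized count over all libraries), a log2 fold change with its standard error on the log2 scale, a Wald statistic (a score, the log2 fold change over its error), and p-values with their adjusted values. The adjusted values were checked to be the Benjamini-Hochberg adjustment over all 23022 genes, with 0 missing.

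The authors' Wald test at an adjusted p under 0.05 defined the calls. The 95% intervals are normal intervals from the deposited standard errors. Implied group means assume that the mean over libraries is the mean of 3 libraries at the 4N level and 2 at the WT level. Genes were matched by symbol, and transcript lengths and chromosomes came from GENCODE M21 (GRCm38). Promoters were searched on both strands, and overlapping matches were counted separately. The genes, the lists and the tests were chosen with earlier results of these data known. Full statistics are given for the smallest and the largest adjusted p of each role, for the extremes and for every mitotic gene that did not pass. In other lists the called genes with the smallest adjusted p are named, up to 3 per direction, or the 2 most abundant where none was called, together with Hhex and Alb. Alternatives were a 0.01 threshold, a mean of 50 or more, a t distribution with 3 degrees of freedom as reference, a null of up to 1.5-fold, and recentring on genes averaging at least 10000 or on 27 secreted plasma proteins. The scripts were tested on simulated data. Software was Python 3.11.15, scipy 1.17.1, numpy 2.4.6, matplotlib 3.10.9 and pandas 2.3.3.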

Additional observations from a re-analysis of the deposited data

How the results depend on the processing

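Of the 38 mitotic genes, 0 fell under any of the 6 alternatives and 0 changed sign, but these settings could not have given another outcome. Only recentring alters a fold change. Recentring on genes averaging at least 10000 moved each down by 0.053, and recentring on the plasma proteins moved each up. The lowest of the 38 was 0.14, so none could turn negative. The number that rose was 33 with a minimum mean of 50, 21 at an adjusted p under 0.01, 28 after recentring on genes averaging at least 10000 and 38 after recentring on the secreted plasma proteins, against 30. With a null of up to 1.5-fold it was 1, with 1 of the other mitosis genes and 521 higher and 588 lower of all genes. Against a t distribution with 3 degrees of freedom it was 0, as were the counts of other mitosis genes, of erythroid markers and of all genes higher and lower. By that reference the smallest adjusted p of all genes was 0.37, and 2513 genes had an unadjusted p under 0.05. The adjusted p under 0.01 left 15 other mitosis genes and 1210 higher genes in all. Recentring on the secreted plasma proteins moved every log2 fold change up by 0.71, a shift that depends on the proteins listed. This recentring put the median of the mitotic genes at 1.53. It gave 100 other mitosis genes higher, and 8422 higher and 761 lower of all genes, against 1828 and 1705, and turned Ppbp to 0.20 and Itgb3 to 0.58. Recentring on genes averaging at least 10000 turned Alb to -0.047. No paired analysis was possible because the groups share no replicate number and the table holds no values of single libraries. For the same reason leaving out each library and another normalization of counts were not run. The depth of each library is unknown.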
